A study of Mus musculus with 23 samples.

Results

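The genes described here are 9 transcription factors of the melanocyte lineage and of the switch between melanoma cell states: Mitf, Sox10, Pax3, Tfap2a, Sox9, Sox5, Zeb1, Zeb2 and Snai2. They were taken by name, whatever their values, from the 37620 gene identifiers of the count files, after 32897 of these had been matched to a mouse symbol. Of the 9, 8 had counts, and Zeb1 was listed at 0 in all 23 libraries. The RNA came from ultraviolet-induced mouse melanomas, sequenced as bulk tumour.

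The labels give 4 groups. HPN lungs (2 libraries) and HPN nodes (7 libraries) are lung and lymph node metastases of mice labelled Nme1+/- / Nme2+/-. HPN primaries (7 libraries) are primary melanomas of the same genotype, and HP primaries (7 libraries) are primary melanomas labelled Nme1wt / Nme2wt. The labels do not spell out HP. In published work on the mouse model of that name, it stands for an Hgf transgene combined with loss of the tumour suppressor Ink4a, which all 4 groups would then share, so that no group here would represent normal skin or melanocytes. Age and sex are not given. HPN lungs, nodes and primaries with the same title number were read as tumours of the same mouse, and node libraries 7a and 7b, from a cervical and an inguinal node, were summed to 1 sample, which left 6 node samples and 22 samples in all.

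MITF is the basic helix-loop-helix factor that sets melanocyte identity and drives pigment and survival genes. SOX10 and PAX3, carried over from the neural crest, bind the Mitf promoter and switch it on, and TFAP2A binds with MITF at melanocyte genes. SOX9 and SOX5 are SOX factors that can replace or dampen SOX10, while the zinc finger proteins ZEB2 and SNAI2 mark the differentiated side and ZEB1 the invasive side of the ZEB switch described in human melanoma.

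The Mitf gene has several promoters, and the one nearest to the shared coding exons starts the melanocyte form. It is shown for that reason. RefSeq's promoter table for GRCm38.p6 gives 3 Mitf start windows, and the 250 bases before the start nearest the 3′ end of the gene lie on the plus strand at chr6:97991533-97991782. The deposited counts were made on mm9, so these coordinates apply to GRCm38.p6 only. Capitals mark a LEF/TCF core (CTTTGAT) at -205 and a cyclic AMP response element (TGACGTCA) at -153 from the start.
Mitf melanocyte promoter: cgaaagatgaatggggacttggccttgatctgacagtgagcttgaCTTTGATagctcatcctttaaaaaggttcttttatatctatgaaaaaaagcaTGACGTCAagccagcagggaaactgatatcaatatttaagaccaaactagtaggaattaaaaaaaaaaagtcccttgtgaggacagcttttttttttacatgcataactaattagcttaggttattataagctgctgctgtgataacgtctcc
These letters occurred on either strand in 3.21% and 1.55% of the table's 32851 promoter windows. The other motifs, searched on both strands, were not found in the stretch shown. Among SOX cores, ACAAAG was present in 16.5% of windows, while 10.7% had the letters ACAATG. The PAX homeodomain core ATTAAT was present in 4.39%. Of the E-boxes, CATGTG was present in 12.3%, the palindrome CACGTG in 6.02% and the SNAI and ZEB form CAGGTG in 17.2%. In the stretch shown the marked motifs do not overlap, although CTTTGAT shares letters with the reverse complement of ACAAAG. Nothing in the counts measures which Mitf promoter was used.

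In units of 1e6, libraries held 18.9 to 89.5 counts assigned to genes, so that the 8 measured factors had at least 93 reads in any library. Levels are counts per 1e6 with edgeR's TMM scaling over all libraries (CPM). Nme1, altered together with Nme2 in HPN mice, averaged 10.6 ± 2.78 CPM in HPN primaries and 16.8 ± 8.06 CPM in HP primaries (SD, n = 7 each). The difference was not called (edgeR adjusted p = 0.951). Nme2 was under 1 CPM in every sample, HP primaries labelled Nme2wt included (mean 0.48 CPM), for a reason that was not tested. Melanocyte pigment genes (Tyr, Tyrp1, Dct, Pmel, Mlana, Slc45a2) were high throughout, with summed levels of 23788 to 35667 CPM in HPN lungs, 4452 to 43128 CPM in nodes, 6016 to 61992 CPM in HPN primaries and 7691 to 51597 CPM in HP primaries. A summary entry for reads of low alignment quality was above 0 in 8 libraries (4 HP primaries, 1 HPN primary and 3 nodes) and 0 in the other 15. These 8 are called low-quality libraries below for that entry alone. It held 196 to 3709 reads in them, and HPN primary 7, with the highest share of entries in genes (50.8%), is among them. In bulk tumours, fewer melanoma cells and less RNA per melanoma cell cannot be told apart.

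Per kilobase of exon, Sox10 was the most abundant factor, at a mean of 141 CPM per kb over the 22 samples, followed by Mitf at 99.1 CPM per kb. Pax3 (36.2 CPM per kb), Tfap2a (28.2) and Zeb2 (28.2) came next, then Sox9 (13.6), Snai2 (7.23) and Sox5 (3.98 CPM per kb). By read share without length correction, Mitf ranked 111 and Zeb2 127 among 13751 protein-coding genes with a mean of at least 1 CPM, and Snai2 ranked 9070. Sox9 varied most between samples, with its highest level 33.2 times its lowest, and Zeb2 least, with 4.39 times. Node 5 held the lowest level of Mitf, Sox10, Tfap2a and Sox9 of the 22 samples. Its library was the smallest of the 23 and had the lowest share of entries in genes (25.0%) and the highest share of uniquely aligned reads outside genes (66.1%). The part of these in its low values was not tested.

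**Figure D1:**
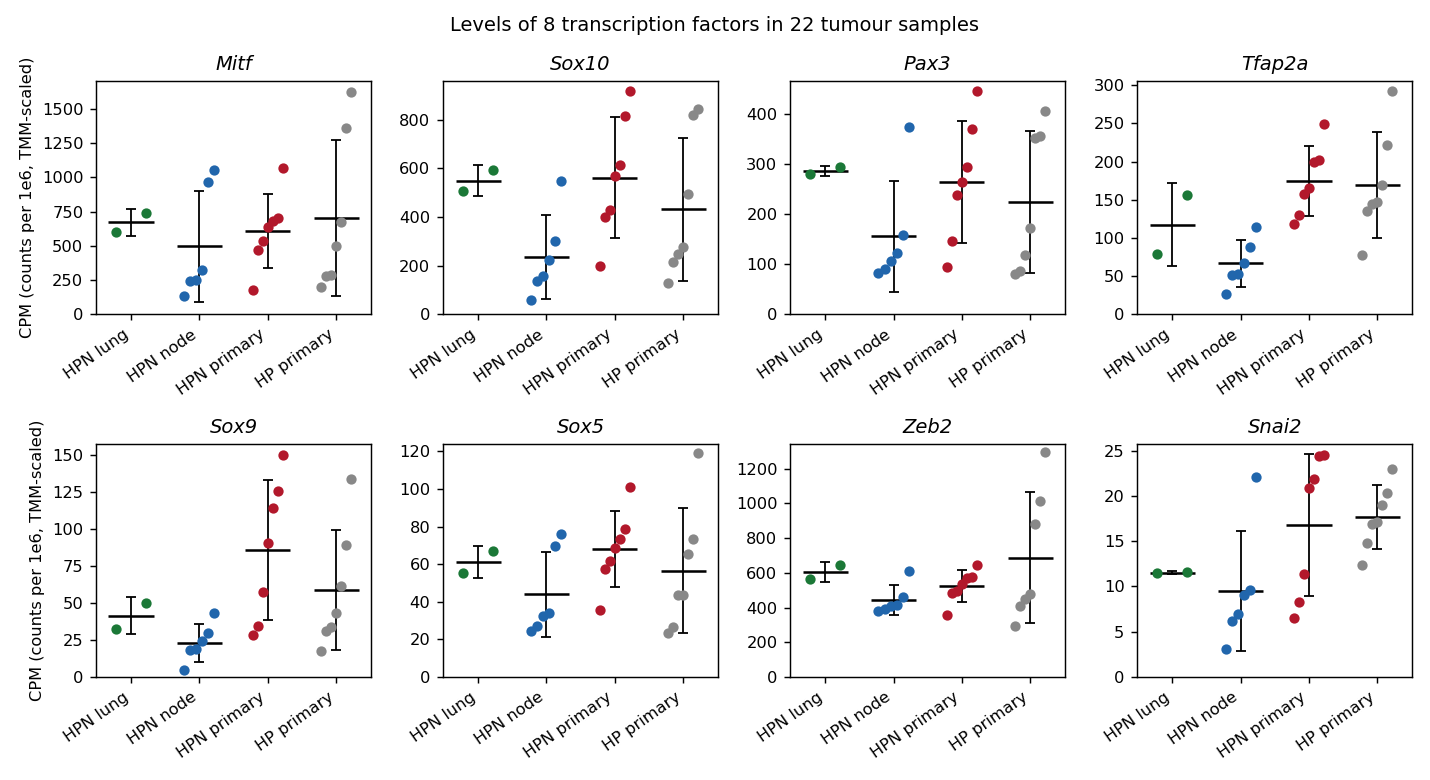
Level of each factor (CPM, linear axis from 0) in HPN lungs, HPN nodes, HPN primaries and HP primaries; points are samples, long bars group means and error bars SD. For Tfap2a the 6 nodes sit between 27.0 and 114 CPM, below the 7 HPN primaries at 118 to 249 CPM, while for the other factors node and primary samples overlap.

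Zeb1, the zinc finger repressor tied to the invasive state in human melanoma, could not be described. It was listed at 0 in all 23 libraries, although its annotated exons span 10266 bases. Of 20195 protein-coding identifiers, 1855 were at 0 throughout, among them Mrpl53, a mitochondrial ribosome gene that most cells use. A 0 of this kind does not show that a gene was silent, and neither the Zeb1 to Zeb2 ratio nor a correlation of Zeb1 with Zeb2 was computed. An antisense gene, Gm10125, which shares 1.93% of the Zeb1 exon bases on the opposite strand, had 695 counts in total.

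The first comparison asked whether loss of a copy of Nme1 and Nme2 went with other levels of these factors in primary tumours. None of the 8 measured factors passed the test. Mitf was at 178, 1069, 470, 638, 679, 534 and 704 CPM in HPN primaries 1 to 7, against 284, 501, 281, 1357, 199, 1627 and 674 CPM in HP primaries 1, 3, 4, 5, 6, 7 and 9. The groups overlapped; HP primaries 5 and 7 lay above every HPN primary, and HPN primary 1 lay just below the lowest HP primary. The fitted log2 difference was -0.21 (SE 0.47, edgeR adjusted p = 0.955).

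Sox10 was at 197, 917, 401, 613, 816, 429 and 567 CPM in HPN primaries, against 215, 248, 277, 494, 128, 820 and 843 CPM in HP primaries. The groups overlapped over most of their range, and the log2 difference of 0.37 (SE 0.42, edgeR adjusted p = 0.951) had an approximate 95% interval of -0.44 to 1.19. Pax3, the paired-box factor upstream of Mitf, averaged 264 ± 121 CPM in HPN primaries and 224 ± 141 CPM in HP primaries (SD, n = 7 each). Tfap2a averaged 175 ± 45.4 CPM in HPN primaries and 169 ± 69.3 CPM in HP primaries (SD, n = 7 each), with a log2 difference of 0.02 and an interval of -0.43 to 0.48. Sox9 averaged 85.9 ± 47.2 CPM in HPN primaries and 58.6 ± 40.6 CPM in HP primaries (SD, n = 7 each).

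Zeb2 had the smallest p of the 8 factors in this comparison (0.176 before adjustment, edgeR adjusted p = 0.951). It was at 494, 577, 359, 482, 571, 645 and 537 CPM in HPN primaries, against 478, 447, 407, 880, 295, 1015 and 1293 CPM in HP primaries, with a log2 difference of -0.40 (SE 0.28). HP primaries 5, 7 and 9 lay above every HPN primary and the other 4 lay within or below them, so the spread was wider in HP (SD 375 CPM) than in HPN primaries (SD 91.1 CPM); the difference in spread was not tested. HP primaries 5, 7 and 9 were also the HP primaries with few skin markers, with keratinocyte sums of 27.5, 7.99 and 10.7 CPM against 4242 to 14559 CPM in the other 4, and fibroblast sums of 208 to 934 CPM against 5826 to 21038 CPM. The part of these cells in the Zeb2 values was not tested. Snai2, the SLUG repressor, averaged 16.8 ± 7.84 CPM in HPN primaries and 17.7 ± 3.53 CPM in HP primaries (SD, n = 7 each). Sox5 averaged 68.1 ± 20.1 CPM in HPN primaries and 56.4 ± 33.2 CPM in HP primaries (SD, n = 7 each).

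By edgeR, 0 of the 8 factors and 0 of 16578 genes (0%) were called between the genotypes, with 0 factors and 477 genes at an unadjusted p under 0.05. DESeq2 also called 0 factors and 0 genes, with 0 factors and 851 genes at an unadjusted p under 0.05. The intervals do not show that the genotypes are alike: for Mitf it ran from -1.13 to 0.71, and for Sox9 from -0.45 to 1.45 on the log2 scale. Keratinocyte markers varied within both groups, with sums of 2.29 to 6399 CPM in HPN primaries and 7.99 to 14559 CPM in HP primaries, and 0 of 8 were called.

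The lists of related genes gave no calls between the genotypes either. Of 20 MITF and SOX10 target genes, 16 had a positive and 4 a negative difference, with a median of 0.40 beside -0.05 for all genes tested. Mlph, the melanophilin that ties melanosomes to the cytoskeleton, had 0.88, and the T-box factor Tbx2 had 0.91 (edgeR adjusted p = 0.951 for both). Of 21 related transcription factors tested, the median was -0.12, and the smallest p belonged to Tfeb (0.37), a relative of MITF that directs lysosome genes, and to Sox11 (-1.03). All 14 epithelial genes tested had negative values, with a median of -0.80, E-cadherin (Cdh1) at -1.09 and the polarity gene Crb3 at -0.95. Of 16 mesenchymal and invasive-state genes, S100a4 (-1.16) and the cadherin Cdh11 (-0.90) had the smallest p, and the list's median was -0.24. At an unadjusted p under 0.05 the counts were 1, 1, 0 and 1 in the order given.

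**Figure D2:**
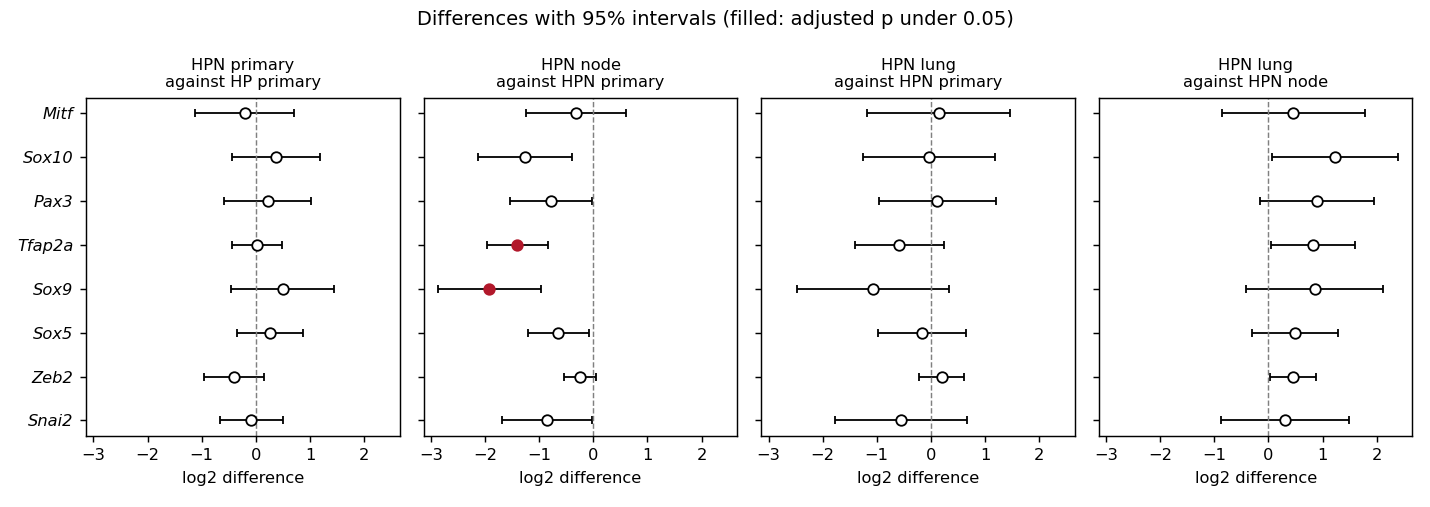
Log2 difference of each measured factor in the 4 comparisons, with bars of 1.96 standard errors as approximate 95% intervals. Filled points have an edgeR adjusted p under 0.05. Tfap2a (-1.41) and Sox9 (-1.92) in nodes against HPN primaries are the 2 filled points.

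Node metastases held less Tfap2a and less Sox9 than the primaries of the same genotype. Tfap2a fell by 1.41 and Sox9 by 1.92 on the log2 scale, while the other 6 factors, Mitf among them, did not pass the test. Of all genes tested, 22.5% were called in either direction and 9.81% were called lower in nodes. Neither call held with title number as a replicate block or without the low-quality libraries. The question behind this comparison is what differs between melanomas in lymph nodes and primary melanomas of the same genotype.

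Tfap2a was at 88.0, 114, 27.0, 67.0, 51.2 and 52.6 CPM in nodes 3, 4, 5, 6, 7 and 8, against 131, 200, 118, 165, 202, 158 and 249 CPM in HPN primaries 1 to 7. All 6 nodes lay below all 7 primaries. Among the genes tested, 0.851% were ordered in this way (163 of 19152). The log2 difference was -1.41 (SE 0.29, edgeR adjusted p = 0.00402). Opposite-strand genes share 14.6% of the Tfap2a exon bases, and the strand setting of the counting is not given.

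Sox9, which works in hair follicle stem cells and neural crest as well as in melanoma, was at 43.0, 29.9, 4.53, 24.0, 18.3 and 18.8 CPM in nodes 3 to 8, against 114, 126, 57.4, 90.6, 150, 34.2 and 28.5 CPM in HPN primaries 1 to 7. HPN primaries 6 and 7 were within the range of the nodes and the other 5 primaries above it. The log2 difference was -1.92 (SE 0.48, edgeR adjusted p = 0.0121).

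Sox10 was at 301, 548, 57.4, 224, 137 and 157 CPM in nodes 3 to 8, against the HPN primary values of 197 to 917 CPM given above. Nodes 5, 7 and 8 lay below every primary, and node 4 lay among the primaries. The log2 difference of -1.27 (SE 0.44) had an edgeR adjusted p of 0.0525, just outside the threshold. Mitf was at 964, 1053, 135, 326, 250 and 242 CPM in nodes 3 to 8. Nodes 3 and 4 were among the highest of the 15 HPN samples and node 5 was the lowest of all, and the log2 difference was -0.32 (SE 0.47, edgeR adjusted p = 0.644).

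Pax3 was at 157, 374, 81.8, 123, 90.4 and 106 CPM in nodes, against 93.4, 369, 146, 237, 445, 264 and 295 CPM in HPN primaries, a log2 difference of -0.78 (SE 0.39, edgeR adjusted p = 0.152). Node 4 stood apart from the other nodes and 5 of 6 nodes lay below 5 of the 7 primaries. Sox5, a SOX factor without an activation domain that can counter SOX10 at pigment genes in mouse, averaged 43.9 ± 22.7 CPM in nodes (n = 6) and 68.1 ± 20.1 CPM in HPN primaries (SD, n = 7). Its log2 difference was -0.65 (edgeR adjusted p = 0.113).

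Zeb2 showed the narrowest range, at 411, 608, 459, 417, 381 and 389 CPM in nodes 3 to 8, against 359 to 645 CPM in HPN primaries, a log2 difference of -0.25 (SE 0.15, edgeR adjusted p = 0.230). Snai2 was at 6.97, 22.1, 6.20, 9.10, 3.10 and 9.59 CPM in nodes, against 21.9, 11.4, 6.46, 24.6, 20.8, 24.4 and 8.33 CPM in HPN primaries, a log2 difference of -0.86 (SE 0.42, edgeR adjusted p = 0.151). For both genes node 4 was the highest node.

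In all, 2 of the 8 factors were called, both lower in nodes. Of all 19152 genes tested, 22.5% were called and 9.81% were called lower, so that 2 in 8 is close to the share of genes called in either direction. The 8 fitted differences were all below 0, with all genes at a median of -0.08. When title number was added as a replicate block, which compares node and primary of the same mouse, 0 factors were called: Tfap2a kept its size at -1.48 with an edgeR adjusted p of 0.0775, and Sox9 was at -1.46 with 0.187. Without the 8 libraries with low-quality reads, 0 were called as well (Tfap2a -1.16, adjusted p 0.0616, and Sox9 -1.95, adjusted p 0.0567), and without node 4 the count was 6, with Sox10, Pax3, Sox5 and Snai2 added. Without node 5 both calls held, with Tfap2a at -1.23 and Sox9 at -1.68. Of all genes, 1.83% were called lower under the block, 2.07% without the low-quality libraries and 12.7% without node 4. Sox10 was added by DESeq2 (14.2% of genes lower) and by leaving out HPN primary 1 (14.1% lower).

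The 5 mice with both a node and a primary tumour showed these genes tumour by tumour. Tfap2a, Sox9 and Sox10 were lower in the node in 5 of 5 mice, with mean log2 differences of -1.47, -1.61 and -1.47. Snai2 was lower in 4 of 5. Mitf, Pax3, Sox5 and Zeb2 were lower in 3 of 5, with Mitf higher in the nodes of mice 3 and 4. In mouse 5, Tfap2a was at 27.0 CPM in the node and 202 CPM in the primary, and Sox9 at 4.53 CPM in the node and 150 CPM in the primary.

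**Figure D3:**
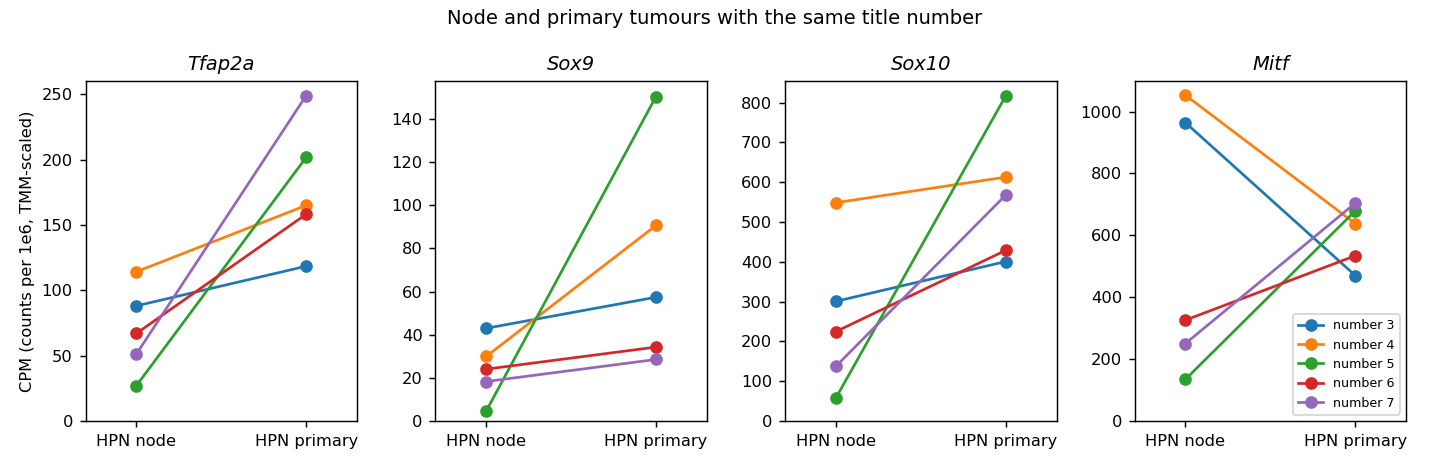
Levels (CPM, linear axis from 0) of Tfap2a, Sox9, Sox10 and Mitf in HPN nodes, left, and HPN primaries, right, for title numbers 3 to 7; lines join tumours with the same number. The lines for Tfap2a, Sox9 and Sox10 are lower at the node end in 5 of 5, and for Mitf in 3 of 5.

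Other cell types differed between nodes and primaries, and their markers are given because several of the factors are also made outside melanocytes. All 8 keratinocyte markers fell in nodes, where their sum was 2.26 to 20.3 CPM against 2.29 to 6399 CPM in HPN primaries. Of 6 hair follicle markers 5 fell, and all 5 skeletal muscle markers fell. All 6 B cell markers rose, to sums of 162 to 1591 CPM in nodes against 0.608 to 8.58 CPM in HPN primaries, and all 6 T cell markers rose, to 86.0 to 556 CPM against 3.96 to 28.8 CPM. Macrophage (2 of 6) and endothelial (2 of 5) markers rose in part, fibroblast markers fell in part (2 of 6), and 0 of 6 Schwann cell, 0 of 6 lung epithelium and 0 of 6 melanocyte markers were called, with no listed marker at 0 throughout a group. Under the replicate block all 6 B cell and all 6 T cell markers were still higher, 3 keratinocyte and 2 skeletal muscle markers were lower, and no marker of the other lists was called. Without the low-quality libraries all 8 keratinocyte, all 6 B cell and all 6 T cell markers kept their calls, and 1 hair follicle and 4 skeletal muscle markers were lower.

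With the mean keratinocyte marker level as a covariate, Tfap2a had a log2 difference of -1.55 (edgeR adjusted p = 0.0125) and Sox9 one of -1.99 (edgeR adjusted p = 0.0285), with 6.29% of genes called lower. All nodes had keratinocyte sums of at most 20.3 CPM, so the covariate cannot fully separate keratinocyte content from tissue. HPN primary 5 had a keratinocyte sum of 2.29 CPM, as low as the nodes, and the highest Sox9 of the 7 HPN primaries (150 CPM). HPN primaries 2 and 7 had keratinocyte sums of 55.6 and 56.1 CPM. Their Sox9 was at 126 CPM and 28.5 CPM, the latter the lowest of the 7. Hair follicle sums were 82.0 CPM in HPN primary 2, 3.06 CPM in HPN primary 7 and 2.68 CPM in HPN primary 5. The part of hair follicle cells in the Sox9 values was not tested. Node 4 held the lowest B cell and T cell sums of the nodes and the highest melanocyte sum (43128 CPM), and node 5 the highest B cell sum and the lowest melanocyte sum (4452 CPM). The part of the lymphocyte share in the node values was not tested.

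The ratio of a pair of factors within a sample does not depend on library scaling. Mitf over Sox10 was higher in nodes than in primaries. It was 3.20, 1.92, 2.33, 1.45, 1.82 and 1.54 in nodes 3 to 8, against 0.905, 1.17, 1.17, 1.04, 0.832, 1.25 and 1.24 in HPN primaries 1 to 7. All 6 nodes lay above all 7 primaries. The fitted log2 differences were -0.32 for Mitf and -1.27 for Sox10, beside a median of -0.08 for all genes. How many other genes over Sox10 would be ordered in this way was not computed. On the log2 scale the mean was 0.98 ± 0.42 in nodes (n = 6) and 0.10 ± 0.23 in HPN primaries (SD, n = 7), a difference of 0.87. The exact two-sided permutation p was 0.00117, the smallest that 1716 arrangements allow here, and 0.00699 after adjustment over the 6 ratio tests. Within the 5 mice with both tumours the difference was 0.92, positive in 5 of 5, with an exact sign-flip p of 0.0625, the smallest that 5 pairs allow, and 0.1875 adjusted. Without the 8 low-quality libraries the difference was 1.03, with an exact permutation p of 0.00952, the smallest that the 210 arrangements of the remaining samples allow, and 0.0571 adjusted. MITF is also made in macrophages and B cells. All 6 B cell markers and 2 of 6 macrophage markers were called higher in nodes. Under the replicate block, 6 B cell markers and 0 macrophage markers were. The part of these cells in the ratio was not tested.

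**Figure D4:**
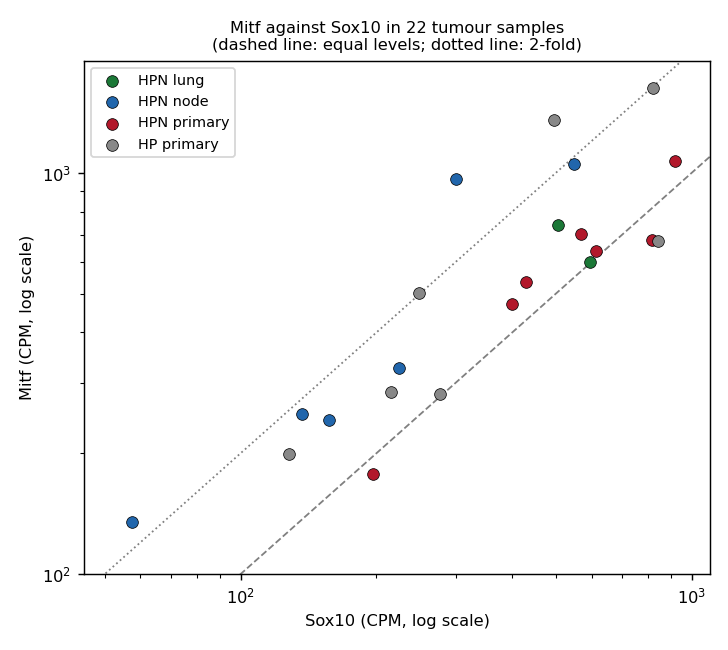
Mitf against Sox10 level (CPM, both axes log) in 22 samples coloured by group; the dashed line marks equal levels and the dotted line a ratio of 2. The 6 nodes lie at Mitf to Sox10 ratios of 1.45 to 3.20, and the 7 HPN primaries close to the dashed line at 0.832 to 1.25.

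In the 2 HPN lungs the Mitf over Sox10 ratio was 1.01 and 1.47. In HP primaries it spread from 0.799 to 2.74, with a log2 mean of 0.10 ± 0.23 in HPN and 0.60 ± 0.62 in HP primaries (SD, n = 7 each). That difference of -0.50 gave an exact two-sided permutation p of 0.0705, or 0.141 adjusted. Leaving out HP primary 9 alone brought it to -0.65 with an adjusted p of 0.0280.

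Pax3 over Sox10 had a log2 mean of -0.50 ± 0.52 in nodes (n = 6) and -1.10 ± 0.28 in HPN primaries (SD, n = 7). The difference of 0.60 had an exact two-sided permutation p of 0.00816 and 0.0245 adjusted. It was 0.51 in node 5, against -0.55 in the next highest node and -0.70 in the highest primary. The call was lost without node 4, 5, 7 or 8 (adjusted p up to 0.0530), under the replicate block (0.58, adjusted p 0.25) and without the low-quality libraries (0.67, adjusted p 0.171). Sox9 over Sox10 averaged -3.27 ± 0.52 in nodes (n = 6) and -2.79 ± 1.09 in HPN primaries (SD, n = 7), a difference of -0.47 (exact permutation, adjusted p 0.442). Between the genotypes, the difference was -0.18 for Pax3 over Sox10 (exact permutation, adjusted p 0.442) and 0.06 for Sox9 over Sox10 (adjusted p 0.948, exact permutation).

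The lists of related genes in nodes against HPN primaries were read by their counts, beside the 9.81% of all genes called lower and 12.7% called higher. Of 20 MITF and SOX10 target genes, 1 was lower and 0 higher, with a median of -0.65 beside -0.08 for all genes. The lower one was Erbb3, a neuregulin receptor that SOX10 activates, at 123 ± 60.3 CPM in nodes (n = 6) and 283 ± 30.6 CPM in HPN primaries (SD, n = 7; log2 difference -1.23, edgeR adjusted p = 0.00466). Its call was lost under the replicate block (-1.22, edgeR adjusted p = 0.0660) and without the low-quality libraries (-1.07, edgeR adjusted p = 0.0628). Tyr, Tyrp1, Dct, Pmel and Mlana, the pigment genes most often read as MITF output, were not called.

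Of 22 related transcription factors tested, 6 were lower and 1 higher, with a median of -0.83. Of all genes, 9.81% were called lower and 12.7% higher. Foxd3, a neural crest forkhead factor, was at 17.2 ± 12.1 CPM in nodes (n = 6) and 62.0 ± 17.3 CPM in HPN primaries (SD, n = 7), a log2 difference of -1.88 (edgeR adjusted p = 0.00395). Twist2 (-2.19), a dermal helix-loop-helix factor, Tfap2c (-7.93), a TFAP2 relative made in epidermis, and Sox4 (-0.85) had the next smallest p. Tfap2c averaged 0.0341 CPM in nodes, so its fold depends on a handful of reads. The higher one was Irf4, a factor of pigment cells and of B and plasma cells, at 124 ± 63.7 CPM in nodes (n = 6) and 46.3 ± 31.1 CPM in HPN primaries (SD, n = 7; log2 difference 1.42, edgeR adjusted p = 0.0412); it was named after its value was seen. Under the replicate block 2 of the 22 were called, Twist2 and Foxd3, and without the low-quality libraries 1 was, Tfap2c, where 1.83% and 2.07% of all genes were called lower.

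Of 16 epithelial genes, which ZEB and SNAI factors repress in carcinoma, 8 were lower and 0 higher in nodes, with a median of -3.55 and 9.81% of all genes called lower. The smallest p belonged to Grhl2 (-5.11), Esrp1 (-6.77), Cldn4 (-5.98) and Ovol1 (-7.04), which are transcription, splicing and tight junction genes of epithelium. Each was under 1 CPM in every node, and all 8 keratinocyte markers fell in the same samples. With the keratinocyte covariate 0 of the 16 were lower and 1, Epcam, was higher. Of 16 mesenchymal and invasive-state genes, 4 were lower and 0 higher: the integrin Itga5 (-0.88), the neural crest receptor Ngfr (-2.26), vimentin (Vim, -0.95) and the collagen Col5a1 (-1.06), with a list median of -0.93. Under the replicate block 1 epithelial gene (Ovol1) was called, and without the low-quality libraries 2 (Grhl2 and Ovol1). Of the 4 mesenchymal genes named, Itga5 alone was also called under the block, and leaving out the low-quality libraries ended the call of all 4. Of all genes, 1.83% were called lower under the block and 2.07% without those libraries.

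In the 2 lung metastases none of the 8 factors passed the test against the primaries, while Sox9 and Tfap2a had the lowest fitted differences. Mitf was at 599 and 742 CPM in HPN lungs 3 and 4, Sox10 at 595 and 506 CPM, Pax3 at 293 and 279 CPM, and Zeb2 at 643 and 562 CPM, each inside the range of the HPN primaries. Tfap2a was at 156 and 78.8 CPM and Sox9 at 50.3 and 32.6 CPM in HPN lungs 3 and 4. Lung 4 lay below all 7 HPN primaries for Tfap2a. Lung epithelium markers summed to 4.15 and 7450 CPM in HPN lungs 3 and 4, and their part in the values of lung 4 was not tested.

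Against HPN primaries, 0 of the 8 factors were called in lungs, with 0.266% of all genes called (51 of 19152). The log2 differences ran from -1.07 for Sox9 (SE 0.71) and -0.58 for Tfap2a (SE 0.42) to 0.20 for Zeb2 (SE 0.21). By edgeR 0 factors were at an unadjusted p under 0.05, and by DESeq2 0 were called and 0 were at an unadjusted p under 0.05. Both lungs share their fit and their primaries with the node comparison. The intervals were wide: for Mitf, -1.18 to 1.46.

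Against nodes, all 8 factors had positive differences in lungs, and 0 were called, with 5.04% of all genes called (966 of 19152). Sox10 had 1.23 (SE 0.59, edgeR adjusted p = 0.234), Tfap2a 0.82 (SE 0.39, edgeR adjusted p = 0.230) and Zeb2 0.45 (SE 0.21, edgeR adjusted p = 0.225). By edgeR 0 factors were at an unadjusted p under 0.05, and DESeq2 called 0, with 1 at an unadjusted p under 0.05. Within mice 3 and 4, Mitf and Sox5 went against this sign in both, with log2 differences for Sox5 of -0.05 and -0.45, and Snai2 had a mean of -0.11 over both mice. Mitf was at 599 CPM in the lung and 964 CPM in the node of mouse 3, and at 742 CPM in the lung and 1053 CPM in the node of mouse 4.

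Of the related lists, 3 genes were called higher in lungs than in nodes, where 1.96% of all genes were: Erbb3 (1.32, edgeR adjusted p = 0.0447), Foxd3 (1.87, edgeR adjusted p = 0.0453) and fibronectin (Fn1, 2.48, edgeR adjusted p = 0.0453). Erbb3 averaged 303 ± 7.97 CPM in lungs (n = 2) and 123 ± 60.3 CPM in nodes (SD, n = 6). Of the 16 epithelial genes 0 were called by edgeR, with 5 at an unadjusted p under 0.05, the smallest p belonging to Ocln (5.69) and Grhl2 (4.02). Against HPN primaries 0 genes of the 4 lists were called by edgeR, with 1, 3, 2 and 0 at an unadjusted p under 0.05 among targets, related factors, epithelial and mesenchymal genes. The smallest p in each list were those of Trpm1 (-2.12) and Pmel (-1.65), Twist2 (-3.09) and Twist1 (-3.51), Cldn7 (4.87) and Cldn4 (-4.73), and Fn1 (1.28) and Tnc (-2.09).

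The factors also differed in how they varied together from tumour to tumour. Over the 14 primaries of both genotypes, Mitf and Sox10 had a Pearson r of 0.85 and a Spearman rho of 0.846 on log2(CPM + 0.5). The permutation p was 0.00017 for r and 0.00029 for rho, or 0.00034 and 0.00058 adjusted over 2 pairs. Without the 2 samples farthest from the median Mitf level, r was 0.75 (permutation, adjusted p 0.00974). It was 0.96 within the 7 HPN primaries and 0.85 within the 7 HP primaries (permutation tests, adjusted p 0.00266 and 0.0226), and 0.85 in the 9 primaries with no low-quality reads. HPN primary 1 and HP primary 6 had the lowest melanocyte sums of their groups (6016 and 7691 CPM). Both also had the lowest Mitf and Sox10 of their groups. HPN primary 5 had the highest sum (61992 CPM), but the highest of neither factor. Whether melanocyte content accounts for the correlation was not tested. How many other genes followed Mitf this closely over the primaries was not computed.

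Mitf and Sox9 had an r of -0.53 and a rho of -0.47 over the 14 primaries (permutation, adjusted p 0.0528 and 0.0899), which did not pass. Without the 2 samples farthest from the median Mitf level, r was -0.34. It was -0.06 within the 7 HPN primaries and -0.91 within the 7 HP primaries (permutation tests, adjusted p 0.921 and 0.00964); the difference between the genotypes was not tested. HP primary 6 had the lowest Mitf of the HP primaries (199 CPM) and the highest Sox9 (134 CPM), and HP primaries 5 and 7 had the highest Mitf (1357 and 1627 CPM) and the lowest Sox9 (17.7 and 31.3 CPM). Skin markers moved with this order: HP primary 6 had the highest keratinocyte (14559 CPM), hair follicle (3414 CPM) and fibroblast (21038 CPM) sums of the HP primaries and the lowest melanocyte sum (7691 CPM), while HP primaries 5 and 7 had keratinocyte sums of 27.5 and 7.99 CPM and the highest melanocyte sums (43185 and 51597 CPM). The part of the skin cells in this relation was not tested.

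Across all 22 samples with group means removed, as a description, Mitf had correlations of 0.90 with each of Sox10, Pax3 and Sox5, 0.70 with Tfap2a and 0.62 with Zeb2. It had 0.21 with Snai2 and -0.07 with Sox9. Sox9 had its lowest value with Zeb2, at -0.42. These points share library, depth and tumour content, and more or fewer melanocyte cells in a sample move several of the genes at once.

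Among 11622 protein-coding genes with a mean of at least 5 CPM, the genes most like each factor over these 22 samples were found by the same measure. Mitf was closest to Pygo1, a Wnt cofactor (r = 0.95), B230118H07Rik and Enho. Sox10 was closest to Trim32 (0.95), Abhd4 and Nav1, and Pax3 to Hacd1 (0.96), Phlda1 and Armcx3. Tfap2a was closest to Cd109 (0.93), Ctnna1, which encodes alpha-catenin, and Wipi1. Among the genes most like Sox5 were Ipo13 (0.93) and Cyp39a1 (0.93), and among those most like Zeb2 were Dagla (0.90) and Sntb1 (0.90). Sox9 was closest to Afdn, a junction protein (0.87), the planar polarity gene Vangl1 and Trim62. Snai2 had the loosest neighbours, Ctns (0.83), Cnst and Ammecr1l.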

How the data were processed

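Tumour RNA (total) went into directional libraries, per the labels' protocols. The submitters' processing notes name bcl2fastq 1.8.4, the aligner STAR 2.5.3a and mouse build mm9. What the authors deposited are raw counts of reads for each Ensembl gene, in whole numbers. Which counter, strand setting and annotation release made them is not given in the sources used here. Entries that name no gene stayed out of all totals and fits, and genes took 25.0 to 50.8% of the entries of a library. Symbols and exon lengths came from GENCODE vM21 (GRCm38), matched by identifier. Promoter sequence came from RefSeq's table for GRCm38.p6. Windows were taken from it for 4 of the 9 factors, and Zeb1 was left out of the search.

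The main test was edgeR 4.0.16 in R 4.3.3 (filterByExpr, TMM, robust glmQLFit, glmQLFTest), with Benjamini-Hochberg adjustment over all genes tested and a threshold of 0.05. HPN and HP primaries (14 libraries) were 1 fit, and HPN lungs, nodes and primaries (15 samples) another. Intervals are 1.96 standard errors. These normal intervals are narrower than the edgeR test implies with so few samples. For Pax3 in nodes against HPN primaries the interval of -1.55 to -0.02 excludes 0 at an unadjusted edgeR p of 0.0627. Log2 ratios of CPM + 0.5 were compared by exact two-sided permutation over samples. Correlations of log2(CPM + 0.5) were tested by 100000 permutations (scipy 1.17.1, Python 3.11.15). The pseudocount was 0.5 in both. The fits were tested on simulated counts with known changes.

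The 9 factors are named throughout. Of each related list, up to 4 called genes with the smallest p are named per comparison, or else the 2 smallest p, and for each factor the 3 most alike genes, apart from a few genes that are not reported here. The members and lists were chosen with earlier results of these data known. The design planned 8 ratio tests and 3 correlations; those with Zeb1, listed at 0, could not be run, which left 6 and 2.

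Title numbers pair HPN tumours of the same mouse, as read from the titles; the deviations of node and primary from their group means correlated at 0.26, -0.10, -0.08, 0.32 and 0.07 for numbers 3 to 7. HPN and HP primaries with the same number, whose origin the labels do not tie, correlated at 0.13 to 0.61 in 6 of 6 numbers, and were treated as paired in the block fit. Nothing in the labels says that samples of a group came from separate animals beyond their numbers, so p-values reflect only how these samples differ among themselves. Alternatives were DESeq2 1.42.0, its size factors in edgeR, counts filtered at 1 CPM or not at all, a single fit of the 4 groups, title number as a block, the low-quality reads as a term or their 8 libraries left out, keratinocyte marker level as a covariate, nodes 7a and 7b apart, other pseudocounts (0.1 and 2), and each sample left out in turn.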

Additional observations from a re-analysis of the deposited data

Results flagged for a closer look

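In groups of 6 or 7 samples, 4 of 33 groups of values held a sample far from the others. The rule flags about 1 in 20 by chance only where values are normally spread and groups independent. Here factor levels were on the linear CPM scale and groups shared genes and samples, so 4 of 33 cannot be set against that rate. Node 4 was high for 3 factors among the 6 nodes: Pax3 at 374 CPM (next node 157 CPM), Zeb2 at 608 CPM (next 459 CPM) and Snai2 at 22.1 CPM (next 9.59 CPM). Node 4 also had the highest melanocyte marker sum of the nodes (43128 CPM) and the lowest B cell sum (162 CPM). The log2 ratio of Pax3 over Sox10 was 0.51 in node 5, against -0.55 in the next node; node 5 had the highest B cell sum (1591 CPM) and the lowest melanocyte sum (4452 CPM). The part of these cells in the values was not tested.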

How the results depend on the processing

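Adding the title number as a replicate block took the factors called in nodes against HPN primaries to 0, with 1274 genes called in all against 4313 without it. Among HPN tumours the block pairs those read as the same mouse. Between genotypes it pairs tumours of different genotype labels that share only a number. The blocked difference within numbers was 0.92 for Mitf over Sox10 (exact sign-flip, adjusted p 0.1875) and 0.58 for Pax3 over Sox10 (adjusted p 0.25), 5 pairs allowing no smaller p than 0.0625, and it turned Sox9 over Sox10 between genotypes to -0.23. The block also turned Mitf (-0.60) and Pax3 (-0.12) in lungs against HPN primaries and Mitf (-0.042) in lungs against nodes; it changed no other call of a factor or a ratio, while the related and marker lists lost calls as given with them. Without the 8 libraries with low-quality reads, 0 factors were called in nodes (1542 genes in all), Mitf there was 0.033, Mitf over Sox10 was 1.03 (adjusted p 0.0571, its unadjusted p being the smallest possible there), Pax3 over Sox10 0.67 (adjusted p 0.171), and Snai2 between genotypes 0.25; fewer samples remain in that fit. The keratinocyte covariate turned Tfap2a between genotypes to -0.0041 and Pax3 in lungs against HPN primaries to -0.11. None of the reversed values was called; beyond the fewer samples, the causes were not tested.

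With each sample left out in turn, 2 to 6 factors were called in nodes (6 without node 4; Sox10 was also added without HPN primary 1, adjusted p 0.0272). Pax3 over Sox10 in nodes ranged from 0.40 to 0.69, and between genotypes Mitf over Sox10 from -0.65 to -0.35 and Sox9 over Sox10 from -0.28 to 0.54. Fitted differences that crossed 0 were, between genotypes, Mitf (-0.41 to 0.12), Tfap2a (-0.10 to 0.18) and Snai2 (-0.19 to 0.058), and in lungs against HPN primaries Mitf (-0.027 to 0.33), Sox10 (-0.17 to 0.12) and Pax3 (-0.023 to 0.29). Tfap2a (-1.62 to -1.23) and Sox9 (-2.17 to -1.68) in nodes kept their calls in all 15. DESeq2 called 3 factors in nodes, adding Sox10 (adjusted p 0.0193), as did nodes 7a and 7b apart (0.0254). The planned tests and alternatives with Zeb1, listed at 0, were not run. Each measured factor had at least 93 reads in any library.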
